A study of Mus musculus with 7 samples.

Results

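The 54 genes described here encode the enzymes and carriers of the urea cycle and of the breakdown of amino acids in the liver. They were listed by symbol for their place in these pathways, and all 54 were found among the 14851 genes of the deposited table. All 54 had a mean of at least 10 normalised counts over the 7 livers, so that each was among the 12545 genes tested.

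Amino acids that are not used for protein are broken down mainly in hepatocytes. Their nitrogen is gathered in glutamate and aspartate and leaves as urea, and their carbon enters the citric acid cycle, gluconeogenesis or the one-carbon pool. Many of these enzymes are made in hepatocytes near the portal vein, whereas hepatocytes around the central vein hold glutamine synthetase and the cytochrome P450 enzymes that activate CCl4. As background, p53 has been described as an activator of *Gls2* and as a repressor of *Cps1*, *Otc* and *Arg1* in other cells.

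Livers of 4 *Albumin-Cre; p53FL/FL* mice (FL) and 3 *Albumin-Cre; p53WT/WT* mice (WT) were compared. Both genotypes carry Cre recombinase under the Albumin promoter, which is active in hepatocytes, so that floxed *Trp53* is deleted in hepatocytes of FL mice. Which other liver cells keep it was not examined here. The mice were C57BL/6J (N10) males of about 70 days, and each liver was taken 8 h after the animal received CCl4 intraperitoneally (1 mL/kg of a 20% v/v stock in corn oil), a solvent that hepatocytes convert into toxic radicals. Livers without CCl4 were not analysed here, so the values describe injured livers of both genotypes and not a response to CCl4. Some mice of both cohorts carried a Rosa26 reporter allele, and the labels do not say which. The mouse identifiers of the WT livers share 1 prefix and those of the FL livers have 2 others, and what the prefixes stand for is not given in the sources used here.

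Each value is a read count per gene that the authors divided by a size factor and rounded to a whole number, called a normalised count below. The libraries held an estimated 11.9 to 19.5 M reads on genes in FL and 15.4 to 17.1 M in WT, so that counting error was small beside the differences between livers. Below, the values of a gene are listed in replicate order, 1 to 4 for FL and 1 to 3 for WT. *Trp53* measured 131, 130, 217 and 110 in FL and 876, 688 and 831 in WT, with no overlap. It fell by 2.47 on the log2 scale (SE 0.23, adjusted p = 0.0447 by limma with Benjamini-Hochberg adjustment), which matches the labels. The 6 hepatocyte markers summed to 1380051 to 1765756 normalised counts in FL and 1175061 to 1425408 in WT. *Alb* held 1118758 to 1511638 of these in FL and 956556 to 1200274 in WT. In bulk liver, fewer cells of a type and less RNA per cell cannot be told apart.

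WT replicate 2 and FL replicate 3 stood apart from the other 5 livers. On the first principal component of all tested genes, which held 66.7% of the variance, the score of WT replicate 2 was 82.0, that of FL replicate 3 was 29.2, and the others had scores from -25.6 to -19.1. The same livers had the lowest sums of pericentral markers, 13407 in WT replicate 2 and 21566 in FL replicate 3 against 45594 to 70218 in the others. They also had the highest sums of periportal markers that are not members, 97995 and 99234 against 52706 to 75314. *Pck1* held 52481 and 51960 of these. Of the 6 periportal markers WT replicate 2 was the highest WT liver in 5, and FL replicate 3 the highest FL liver in all. The exception was *Cyp2f2*, lowest of all livers in WT replicate 2 at 19627. Of the 7 pericentral markers WT replicate 2 was the lowest WT liver in 6, with *Lect2* highest there at 786. FL replicate 3 was the lowest FL liver in all 7. The macrophage, stellate and proliferation markers summed to 14199, 6978 and 1298 in WT replicate 2 and to 8577, 3219 and 525 in FL replicate 3, against at most 6582, 2736 and 375 in the others. WT replicate 2 was the highest WT liver in 8 of 8, 6 of 6 and 7 of 8 of them, and FL replicate 3 the highest FL liver in 7, 4 and 7. *Pcna* was lowest of its genotype in both, at 162 and 190. Bile duct markers summed to 1203 in WT replicate 2 and 603 in FL replicate 3, against 879 to 1482 in the others. FL replicate 3 was the lowest FL liver in all 5 of these. Values without WT replicate 2 and FL replicate 3 are given below for some of the members, and the part of these marker differences in the results was not tested.

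Members differed widely in abundance. Per kb of exon, the mean over the 7 livers was highest for *Mat1a*, which makes S-adenosylmethionine in the liver, at 25988 normalised counts. *Gnmt*, which uses S-adenosylmethionine to methylate glycine, followed at 22133, then *Cdo1*, which oxidises cysteine, at 14520. Next came *Cps1*, which fixes ammonia in the first step of the urea cycle, at 12679, and *Arg1*, which releases urea from arginine in the last step, at 10321.

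The tyrosine enzymes *Hpd* and *Tat* stood at 10267 and 9156 normalised counts per kb, close to *Arg1*. Among the branched-chain enzymes 7 of the 8 lay at 470 or below per kb, and *Bckdha* stood at 2112. The lowest of all members was *Mccc1*, a subunit of the carboxylase that acts on leucine breakdown products, at 59.2 per kb. Within the urea cycle the order per kb was *Cps1*, *Arg1*, *Asl* at 4446, the ornithine carrier *Slc25a15* at 1343, *Ass1* at 1241, *Otc* at 954, the aspartate carrier *Slc25a13* at 698 and *Nags* at 573. The value of *Ass1* holds only reads that were not counted on a near-identical copy, which is described below. That copy was listed at 11.85 to 15.30 times *Ass1*, so the place of *Ass1* among the members is uncertain.

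**Figure D1:**
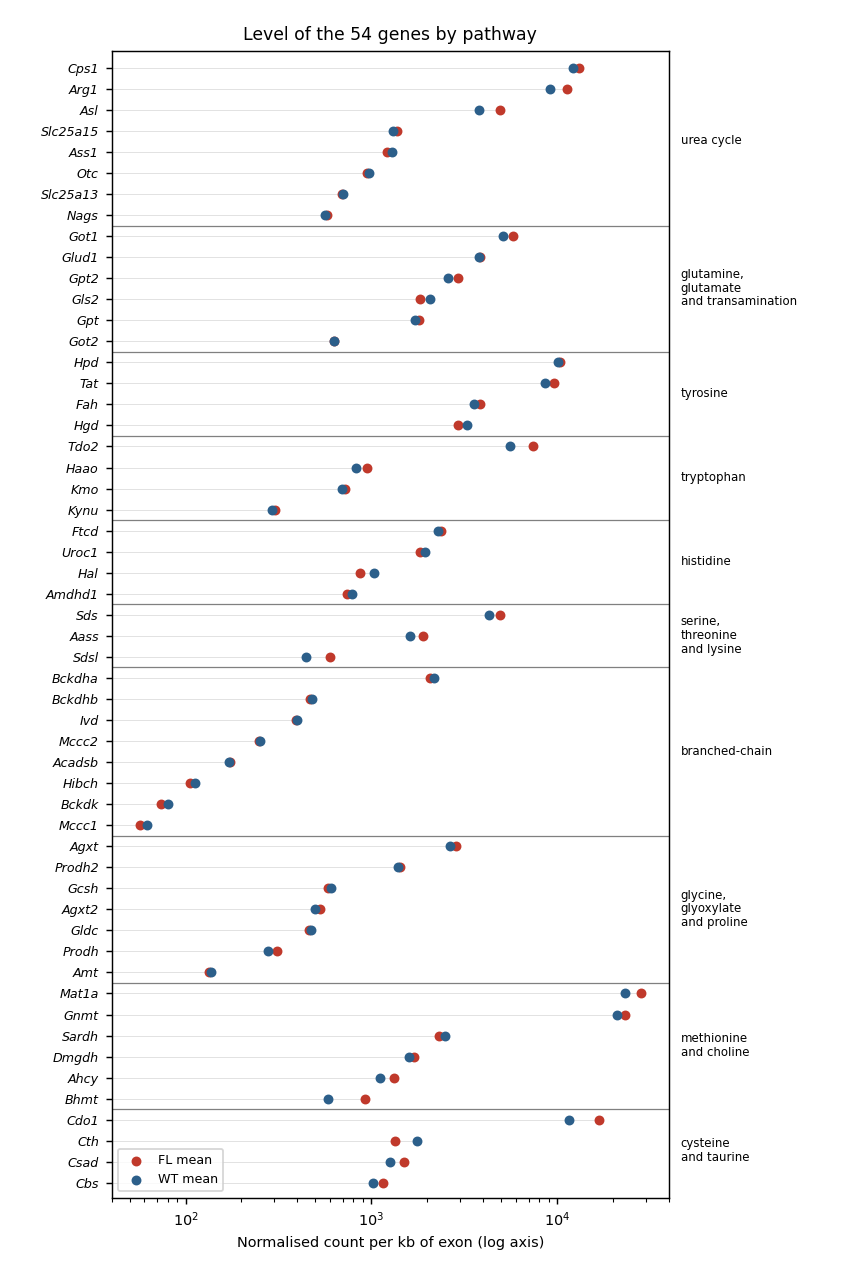
Mean normalised count per kb of exon (x axis, log scale) of each of the 54 genes (y axis), grouped by pathway, for 4 FL livers (red) and 3 WT livers (blue). The 2 means of a gene lie close together beside the range between genes, which runs from 59.2 for *Mccc1* to 25988 for *Mat1a* over the 7 livers.

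Among livers of 1 genotype, the members differed in a shared direction. In 43 of the 54 members WT replicate 2 was the highest WT liver, against 45.9% of all tested genes. FL replicate 3 was the highest FL liver in 38 members, against 35.4% of all tested genes. Both held in 38 members, against 29.1% of all tested genes. These livers were singled out after their values were seen, and the counts describe these libraries.

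The median member lay 0.36 higher in WT replicate 2 than in the other WT livers on the log2 scale, and 0.29 higher in FL replicate 3 than in the other FL livers, where the medians of all tested genes were 0.02 and 0.01. Relative to each gene's mean over the 7 livers, the median member stood at 0.27 in FL replicate 3, 0.22 in WT replicate 2, 0.09 in FL replicate 4, -0.08 in WT replicate 3, -0.10 in FL replicate 2, -0.14 in FL replicate 1 and -0.22 in WT replicate 1, again on the log2 scale. Livers of both genotypes thus lay at both ends. The members together took 2.92% of all normalised counts in WT replicate 1 and 4.17% in FL replicate 3. WT replicate 1 was the lowest WT liver in 40 members, against 29.6% of all tested genes, and FL replicate 1 or 2 was the lowest FL liver in 46, against 43.1% of all tested genes.

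Histidine breakdown departed furthest, with medians of 1.01 in WT replicate 2 and 0.74 in FL replicate 3 on the log2 scale. The methionine and choline genes went both ways, with medians of 0.04 and 0.01, and in WT replicate 2 *Bhmt* lay 0.45 above and *Ahcy* 0.47 below the other WT livers on the log2 scale. Some members went the other way in WT replicate 2, where it was the lowest WT liver in 7. *Prodh*, which starts proline breakdown, measured 2679, 1363 and 2458 normalised counts in WT replicates 1 to 3, so that replicate 2 stood at 0.53 times the others. *Glud1*, the glutamate dehydrogenase that releases ammonia, stood at 0.73 times the others in WT replicate 2 and 0.74 times in FL replicate 3. *Glul*, the pericentral glutamine synthetase that takes up ammonia and is no member, was also lowest there, at 1048 and 1470 against 3195 to 4538 in the others.

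**Figure D2:**
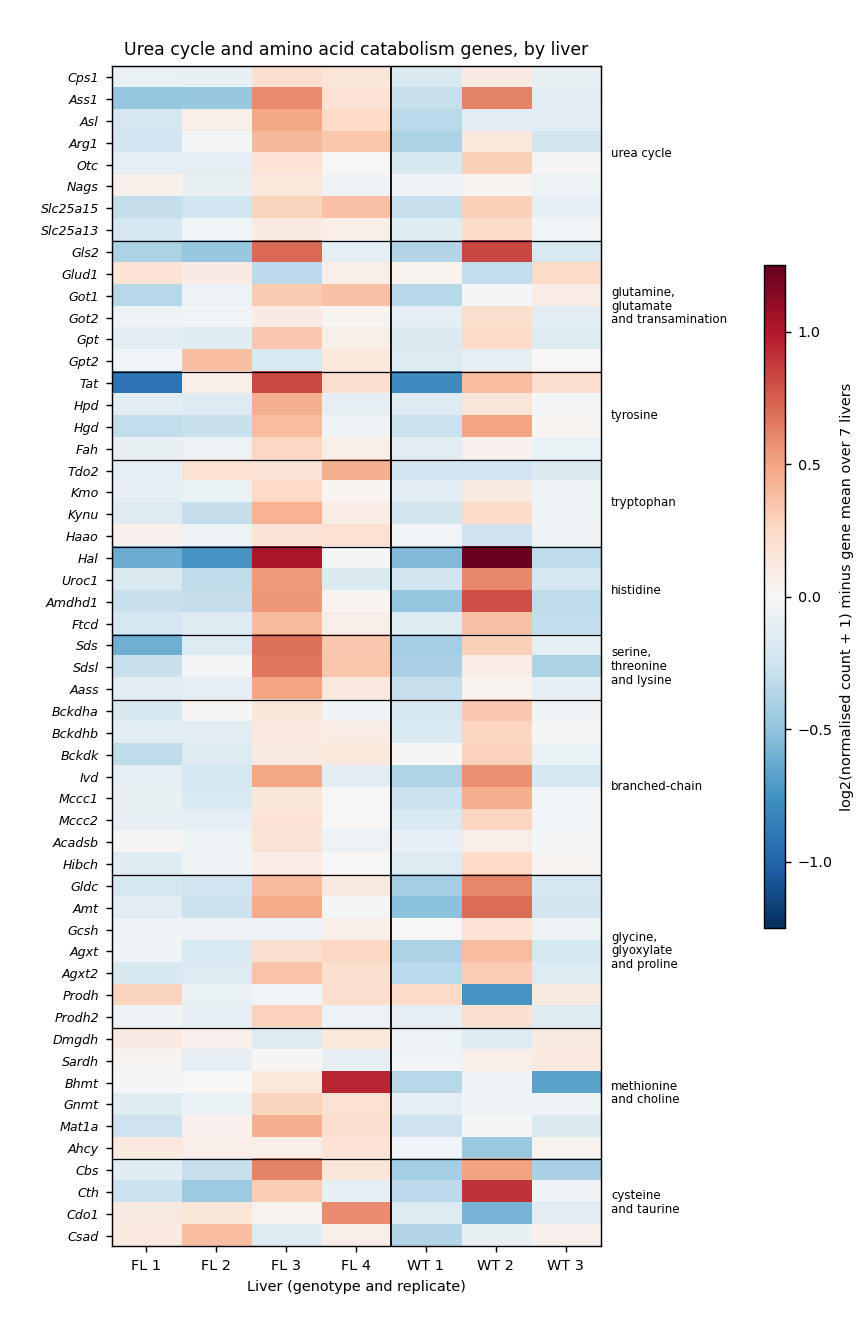
Departure of each of the 54 genes (rows, by pathway) from its own mean over the 7 livers, as log2(normalised count + 1), in each FL and WT liver (columns). Red is above and blue below the gene's mean, and the reddest columns are FL replicate 3 and WT replicate 2, with medians of 0.27 and 0.22, whereas the palest to bluest are spread over both genotypes.

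**Figure D3:**
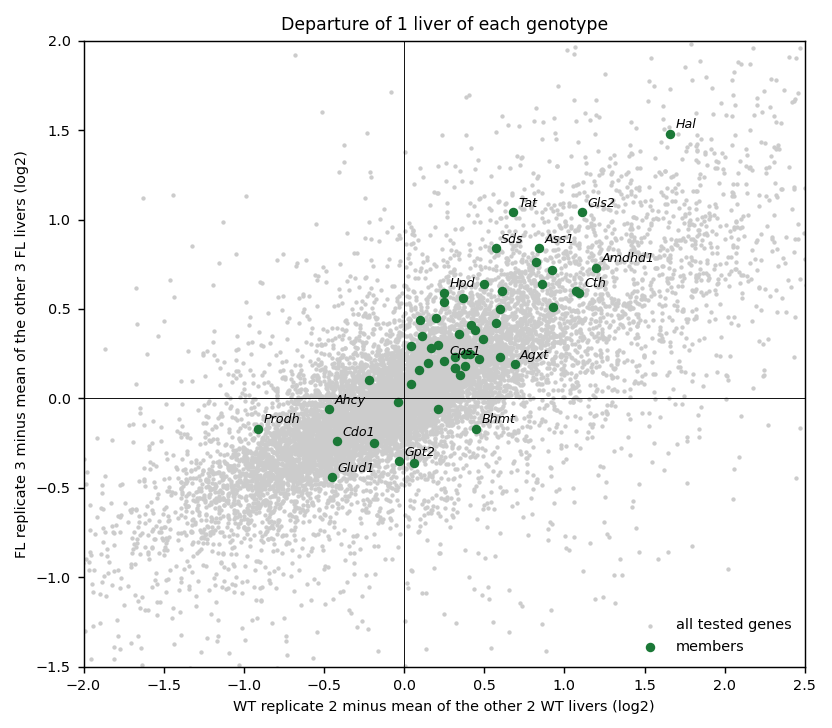
WT replicate 2 relative to the other WT livers (x axis) and FL replicate 3 relative to the other FL livers (y axis), both as log2 differences, for the members (green) and the tested genes that fall within the axes (grey, with 424 genes beyond them). *Hal* lies at the upper right, 3.15 times and 2.73 times the other livers of its genotype, and *Prodh* and *Glud1* lie at the lower left.

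Between the genotypes, no member passed the threshold. The adjusted p was 0.999 for every member, against 2 genes or 0.0159% of all tested genes with an adjusted p under 0.05 (limma, Benjamini-Hochberg). Without adjustment, 3 members had a limma p under 0.05, all higher in FL, namely *Cdo1*, *Tdo2* and *Bhmt*. The same held for 1.59% of all tested genes in this direction, and for 1.6% in the other, where there was no member. With 4 and 3 livers, the exact two-sided permutation test over the 35 ways of dividing them gives no p below 0.029.

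Log2 fold changes of the members, FL minus WT, ran from -0.31 for *Cth* to 0.62 for *Bhmt* with a median of 0.05, where the median of all tested genes was 0.01. This median was 0.17 without WT replicate 2, -0.03 without FL replicate 3, -0.03 without WT replicate 1 and -0.02 after quantile normalisation. Of the members 37 lay above 0 and 17 below, a share of 68.5% against 51.6% of all tested genes. The 6 hepatocyte markers all lay above 0, with a median log2 fold change of 0.31. How far the members follow these markers was not tested. The 95% limma interval stayed within 1.5-fold in both directions for 28 members, among them *Cps1*, *Otc*, *Nags*, the carriers *Slc25a15* and *Slc25a13*, and 7 of the 8 branched-chain genes. For the other 26 a change of 1.5-fold or more in at least 1 direction lay inside the interval. The widest interval was that of *Hal*, from 0.37 to 2.05-fold. A single FL liver lay far from the other FL livers by Dixon's test in 5 members, against 6.75% of all tested genes.

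In 4 members, *Tdo2*, *Bhmt*, *Ahcy* and *Cdo1*, every FL liver lay above every WT liver, against 2.77% of all tested genes. In none did every FL liver lie below, against 1.98% of all tested genes.

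**Figure D4:**
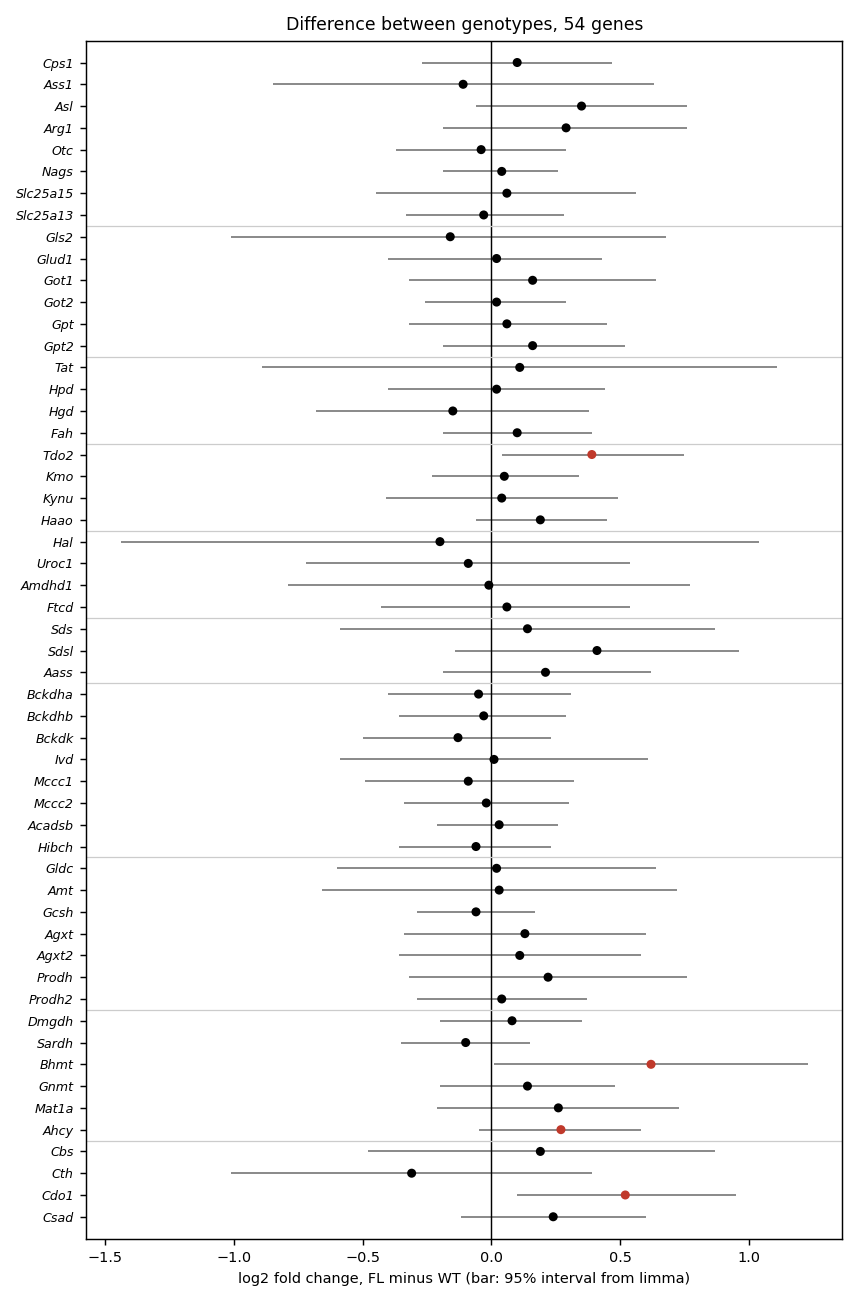
Log2 fold change between genotypes, FL minus WT (x axis), with its 95% limma interval, for each of the 54 genes by pathway (y axis), with the members whose FL livers all exceed the WT livers in red. The points run from -0.31 to 0.62, and 51 of the 54 intervals hold 0.

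In the urea cycle, 5 of the 8 genes lay above 0 and 3 below, and all 8 were highest among the WT livers in replicate 2. The median log2 fold change was 0.05 with all livers, 0.18 without WT replicate 2, -0.02 without FL replicate 3, -0.02 without WT replicate 1 and -0.07 after quantile normalisation. *Cps1*, the mitochondrial synthase that joins ammonia and bicarbonate to carbamoyl phosphate, measured 66147, 65785, 80613 and 77678 normalised counts in FL and 61712, 75463 and 65623 in WT. The highest values were thus in FL replicates 3 and 4 and WT replicate 2, and the ranges of the genotypes overlapped. Its log2 fold change was 0.10 (SE 0.16, 95% interval -0.27 to 0.47, exact permutation p = 0.343). *Nags*, which makes the N-acetylglutamate that *Cps1* needs, varied least of all members, with 1700, 1526, 1781 and 1572 in FL and 1577, 1667 and 1558 in WT. The FL values lay on both sides of the WT values, with a log2 fold change of 0.04 (SE 0.10, 95% interval -0.19 to 0.26). *Otc*, which joins carbamoyl phosphate to ornithine, measured 3704, 3718, 4533 and 4002 in FL and 3489, 4930 and 3952 in WT. Its highest and its lowest value were both in WT livers, and its log2 fold change was -0.04 (SE 0.14, exact permutation p = 0.714), and 0.04 without WT replicate 2 and FL replicate 3.

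The later steps of the cycle varied more. *Asl*, which splits argininosuccinate into arginine and fumarate, measured 18193, 22428, 29419 and 25082 normalised counts in FL and 16739, 19252 and 19251 in WT. FL replicates 2 to 4 exceeded all WT livers while FL replicate 1 fell among them, and the log2 fold change was 0.35 (SE 0.18, 95% interval -0.06 to 0.76, p = 0.0844 by limma, exact permutation p = 0.114). Leaving out FL replicate 1, the only FL liver that overlapped, parts the genotypes by construction, so that separation is no further evidence. Without that liver, 4.38% of all tested genes had every FL liver above every WT liver. *Arg1*, which splits arginine into urea and ornithine, measured 19070, 22194, 29937 and 28656 in FL and 17229, 24664 and 19210 in WT. Its order among the livers was close to that of *Cps1*, with WT replicate 2 between the lower and the higher FL livers, and its log2 fold change was 0.29 (SE 0.21, exact permutation p = 0.314). *Slc25a15* and *Slc25a13*, which carry ornithine and aspartate across the mitochondrial membrane, had log2 fold changes of 0.06 and -0.03.

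*Ass1*, which joins citrulline and aspartate, measured 2048, 2062, 4296 and 3240 normalised counts in FL and 2336, 4393 and 2592 in WT. WT replicate 2 and FL replicate 3 were nearly equal at the top and FL replicates 1 and 2 were the lowest, with a log2 fold change of -0.11 (SE 0.32, exact permutation p = 0.771). Of the 36-base stretches in *Ass1* transcripts, 41.9% also occur in *Gm5424*, a processed pseudogene on chromosome 10 (chr10:62071123-62072362 in GRCm38), so that the split of reads between them is uncertain. *Gm5424* was listed at 31334, 29124, 60111 and 38401 in FL and 32453, 56225 and 36302 in WT, between 11.85 and 15.30 times *Ass1* in the same liver. FL replicate 3 and WT replicate 2 were the highest livers of both rows, and their sum gave a log2 fold change of -0.09 (SE 0.30, exact permutation p = 0.771).

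Among the genes of glutamine, glutamate and transamination, 5 of 6 lay above 0 and 1 below, between -0.16 and 0.16. *Gls2*, the liver glutaminase that releases ammonia from glutamine, measured 4775, 4513, 10271 and 5803 normalised counts in FL and 4887, 11224 and 5509 in WT. WT replicate 2 was 2.16 times the other WT livers and FL replicate 3 was 2.04 times the other FL livers, and the remaining 5 livers of both genotypes lay between 4513 and 5803. Its log2 fold change was -0.16 (SE 0.37, exact permutation p = 0.571), and -0.05 without these livers. *Gpt2*, a mitochondrial alanine aminotransferase, was lowest among the FL livers in replicate 3, at 13552, whereas its relative *Gpt* was highest there, at 6472. The aspartate aminotransferases *Got1* and *Got2* had log2 fold changes of 0.16 and 0.02, and 19.4% of the 36-base stretches of *Got2* also occur in the pseudogene *Got2-ps1*.

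Tyrosine breakdown lay between -0.15 and 0.11, with 3 of 4 genes above 0. *Tat*, the aminotransferase that starts it and a classic glucocorticoid-responsive gene, measured 10723, 21541, 36209 and 23538 normalised counts in FL and 11828, 26692 and 23618 in WT. FL replicate 1 and WT replicate 1 stood far below all others, FL replicate 3 stood above, and the highest was 3.38 times the lowest, a spread exceeded among the members only by *Hal*. The log2 fold change of *Tat* was 0.11 with a 95% interval from -0.89 to 1.11 (exact permutation p = 0.886). *Hpd*, the next enzyme, was tight in 3 FL livers, at 19323 to 19979, and reached 29459 in FL replicate 3. *Hgd* and *Fah*, which open the ring and end the pathway, had log2 fold changes of -0.15 and 0.10.

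All 4 tryptophan genes lay above 0, with a median of 0.12. *Tdo2*, the dioxygenase that commits tryptophan to the kynurenine pathway, measured 23158, 28829, 28114 and 34366 normalised counts in FL and 21315, 21241 and 22244 in WT. The WT livers were almost equal, WT replicate 2 included, and the lowest FL liver lay just above them. *Tdo2* is on chromosome 3 (chr3:81957090-81976202, minus strand). The FL mean was 28617 ± 4588 (SD, n = 4) and the WT mean 21600 ± 559 (SD, n = 3), a log2 fold change of 0.39 (SE 0.15, 95% interval 0.04 to 0.75, p = 0.0345 and adjusted p = 0.999 by limma, exact permutation p = 0.057). Leaving out WT replicate 2 and FL replicate 3 gave 0.38, whereas quantile normalisation gave 0.17.

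*Haao*, which opens the ring of 3-hydroxyanthranilate further down the same pathway, measured 4342, 4001, 4677 and 4765 normalised counts in FL and 4096, 3503 and 4063 in WT. Only FL replicate 2 fell within the WT range, and the log2 fold change was 0.19 (SE 0.11, 95% interval -0.06 to 0.45, exact permutation p = 0.114), and 0.10 without WT replicate 2 and FL replicate 3. *Kmo* and *Kynu*, which act between *Tdo2* and *Haao*, had log2 fold changes of 0.05 and 0.04, with FL replicate 3 and WT replicate 2 the highest livers of both.

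Histidine is broken down by *Hal*, *Uroc1*, *Amdhd1* and *Ftcd* in that order, and these genes departed furthest in WT replicate 2 and FL replicate 3. *Hal* and *Amdhd1* are also neighbours on chromosome 10, transcribed towards each other with 4.0 kb between them (chr10:93488768-93519304, plus strand, and chr10:93523338-93540033, minus strand). The 120 bases before the start of each gene (RefSeq, GRCm38.p6, 5′ to 3′ on the strand of the gene) are shown because the genes moved together among the livers, with TATAAA or its reverse complement TTTATA and the motif CCAAT in capitals.
Hal: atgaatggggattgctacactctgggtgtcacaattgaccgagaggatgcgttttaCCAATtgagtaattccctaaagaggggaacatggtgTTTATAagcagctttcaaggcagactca
Uroc1: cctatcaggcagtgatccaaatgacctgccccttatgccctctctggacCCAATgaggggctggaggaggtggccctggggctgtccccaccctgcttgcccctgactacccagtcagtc
Amdhd1: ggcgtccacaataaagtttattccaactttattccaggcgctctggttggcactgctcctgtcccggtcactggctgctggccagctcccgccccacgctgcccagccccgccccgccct
Ftcd: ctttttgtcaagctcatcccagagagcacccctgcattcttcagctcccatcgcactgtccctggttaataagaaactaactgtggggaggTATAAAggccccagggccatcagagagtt
They lie at chr10:93488648-93488767 (plus) for *Hal*, chr6:90333164-90333283 (plus) for *Uroc1*, chr10:93540034-93540153 (minus) for *Amdhd1* and chr10:76575528-76575647 (plus) for *Ftcd*.

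The motif TATAAA, read on either strand, starts 28 bases before the start of *Hal* and 29 before that of *Ftcd*, and CCAAT starts 64 bases before *Hal* and 71 before *Uroc1*. Neither occurs in the printed stretch of *Amdhd1*. Over the window from 250 bases before to 50 after the start, searched on both strands, TATAAA occurred in 7 of the 43 members with a RefSeq entry and in 13.6% of 32851 promoters, and CCAAT in 22 members and in 37.4% of promoters. TGACG, a part of the cAMP response element, occurred in 6 members and in 20.8% of promoters, and the p53 half-site in 3 members, *Uroc1*, *Amt* and *Got1*, and in 8.36% of promoters. A match describes the letters only and is no evidence of binding.

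*Hal*, the histidine ammonia-lyase, measured 2934, 2719, 9194 and 4462 normalised counts in FL and 3073, 10545 and 3631 in WT. WT replicate 2 was 3.15 times the other WT livers and FL replicate 3 was 2.73 times the other FL livers, and FL replicate 4 stood next. The highest liver was 3.88 times the lowest, the widest range of all members, and the log2 fold change was -0.20 with a 95% interval from -1.44 to 1.04 (SE 0.54, exact permutation p = 0.657). *Uroc1*, the urocanase, was 1.77 and 1.69 times the other livers of its genotype in the same replicates, *Amdhd1* 2.30 times in WT replicate 2, and *Ftcd*, which passes the formimino group to folate, 1.51 and 1.41 times in both. The 5 other livers of *Uroc1* lay between 5059 and 5551 with the genotypes mixed, and its log2 fold change was -0.09. Without these livers the log2 fold change was -0.02 for *Hal*, 0.00 for *Uroc1*, 0.21 for *Amdhd1* and 0.13 for *Ftcd*.

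Serine, threonine and lysine breakdown lay above 0 in all 3 genes. *Sds*, the serine dehydratase that feeds pyruvate to gluconeogenesis, measured 4925, 6696, 12147 and 9523 normalised counts in FL and 5619, 9274 and 6974 in WT. FL replicate 1 was the lowest and FL replicate 3 the highest, with the WT livers between, and the log2 fold change was 0.14 (SE 0.32, exact permutation p = 0.743). *Sdsl*, its relative, lies 3.7 kb away on chromosome 5 on the opposite strand (chr5:120458186-120472810, against chr5:120476526-120483932 for *Sds*) and measured 635, 755, 1215 and 980 in FL and 581, 823 and 585 in WT. Apart from WT replicate 2, every WT liver was below every FL liver, and the log2 fold change was 0.41 (SE 0.24, 95% interval -0.14 to 0.96, exact permutation p = 0.229). *Aass*, which starts lysine breakdown, measured 6095, 6114, 9406 and 7245 in FL and 5452, 6866 and 6126 in WT. FL replicates 3 and 4 exceeded the WT livers while the other FL livers lay among them, with a log2 fold change of 0.21 (SE 0.18, 95% interval -0.19 to 0.62).

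The branched-chain genes differed least between the genotypes, with log2 fold changes from -0.13 for *Bckdk* to 0.03 for *Acadsb* and a median of -0.04 that was 0.05 without WT replicate 2 and FL replicate 3. *Bckdha* and *Bckdhb*, subunits of the dehydrogenase that commits these amino acids to breakdown, lay at -0.05 and -0.03, and *Bckdk*, the kinase that inactivates it, measured 225, 251, 304 and 307 normalised counts in FL and 284, 342 and 265 in WT. FL replicates 1 and 2 lay below the WT range and the others within it. WT replicate 2 was the top WT liver in all 8 genes, and FL replicate 3 the top FL liver in 7. *Ivd*, which acts on the leucine branch, departed most, at 3128 in WT replicate 2 against 1626 and 1814 in the other WT livers and 2953 in FL replicate 3 against 1807 to 1941 in the other FL livers.

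In glycine, glyoxylate and proline metabolism 6 of 7 genes lay above 0, between -0.06 and 0.22. *Gldc*, the decarboxylase of the glycine cleavage system, measured 2362, 2313, 3620 and 2982 normalised counts in FL and 2038, 4200 and 2373 in WT. WT replicate 2 was 1.90 times the other WT livers and the highest of all, and the log2 fold change was 0.02 (SE 0.27, exact permutation p = 1.000), and 0.20 without WT replicate 2 and FL replicate 3. *Amt*, the aminomethyltransferase of the same complex, followed it with 2.09 times and a log2 fold change of 0.03 that was 0.24 without these livers, whereas *Gcsh*, its lipoyl carrier protein, stood at 1.15 times in WT replicate 2 and 0.96 times in FL replicate 3.

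*Agxt*, which detoxifies glyoxylate in peroxisomes, measured 4460, 4065, 5319 and 5533 normalised counts in FL and 3527, 6050 and 3979 in WT. WT replicate 2 was the highest liver and the other WT livers were the lowest, so that the log2 fold change was 0.13 with all livers and 0.31 without WT replicate 2 and FL replicate 3. *Agxt2* gave 0.11 and 0.19. The proline oxidase *Prodh* gave 0.22 with all livers and -0.04 without them, and *Prodh2*, which oxidises hydroxyproline, gave 0.04 and 0.07.

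Methionine and choline genes held 2 of the 4 members whose genotypes did not overlap, and 5 of 6 lay above 0. *Bhmt*, which remethylates homocysteine with betaine made from choline, measured 4138, 4206, 4633 and 8185 normalised counts in FL and 3326, 4065 and 2655 in WT. FL replicate 4 was far above the other FL livers, and the remaining FL livers lay just above the highest WT liver. The FL mean was 5290 ± 1942 (SD, n = 4) and the WT mean 3349 ± 705 (SD, n = 3), with a log2 fold change of 0.62 (SE 0.26, 95% interval 0.01 to 1.23, p = 0.0469 and adjusted p = 0.999 by limma, exact permutation p = 0.086). Leaving out WT replicate 2 and FL replicate 3 gave 0.81. *Bhmt* and *Dmgdh*, which oxidises the dimethylglycine that *Bhmt* makes, lie 36.5 kb apart on chromosome 13 (chr13:93616675-93637961, minus strand, and chr13:93674433-93752833, plus strand), and *Dmgdh* differed little, with a log2 fold change of 0.08. Of the 36-base stretches of *Bhmt*, 28.5% also occur in other transcripts, mostly in *Gm5096*, whose value was not used here, so that the split of its reads is uncertain.

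*Ahcy*, which splits S-adenosylhomocysteine, measured 3734, 3648, 3615 and 3898 normalised counts in FL and 3351, 2485 and 3552 in WT. The FL livers were close together and above all WT livers, by a narrow margin over WT replicate 3, and WT replicate 2 was the lowest. The log2 fold change was 0.27 (SE 0.14, 95% interval -0.05 to 0.58, exact permutation p = 0.029, the smallest possible), and 0.12 without WT replicate 2 and FL replicate 3. *Ahcy* on chromosome 2 (chr2:155059310-155074497, minus strand) shares 70.7% of its 36-base stretches with other transcripts, nearly all of them with the retrogene *Gm4737* on chromosome 16 (chr16:46152985-46155077).

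*Gm4737* was listed at 7754, 6985, 7027 and 6819 normalised counts in FL and 6837, 4670 and 7440 in WT, between 1.75 and 2.09 times *Ahcy*. The sum of both rows was 11488, 10633, 10642 and 10717 in FL and 10188, 7155 and 10992 in WT. In the sum WT replicate 3 exceeded 3 of the 4 FL livers, so the genotypes overlapped, and the log2 fold change was 0.23 (SE 0.16, exact permutation p = 0.114). *Mat1a* and *Gnmt*, the most abundant members per kb, had log2 fold changes of 0.26 and 0.14 with overlapping genotypes, and *Sardh*, which oxidises the sarcosine that *Gnmt* makes, was at -0.10.

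Cysteine and taurine genes held the lowest log2 fold change of all members, that of *Cth*, and the highest after *Bhmt*, that of *Cdo1*. *Cbs*, which condenses homocysteine with serine in the first step from methionine to cysteine, measured 7113, 6474, 12162 and 8796 normalised counts in FL and 5872, 11190 and 5977 in WT. Again FL replicate 3 and WT replicate 2 were far above the rest, with a log2 fold change of 0.19 (SE 0.29, 95% interval -0.48 to 0.87) that was 0.32 without them. *Cth*, which releases cysteine in the next step, measured 3359, 2955, 5013 and 3709 in FL and 3223, 7563 and 3928 in WT. WT replicate 2 stood alone at 2.12 times the other WT livers, and the log2 fold change was -0.31 (SE 0.30, 95% interval -1.01 to 0.39, exact permutation p = 0.457), or -0.10 without WT replicate 2 and FL replicate 3.

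*Cdo1*, the dioxygenase that commits cysteine to sulfinate and so to taurine or sulfate, measured 25055, 25799, 23925 and 35077 normalised counts in FL and 20636, 15535 and 21070 in WT. FL replicate 4 was the highest and WT replicate 2 the lowest. The lowest FL liver, at 23925, lay above the highest WT liver, at 21070, a gap smaller than the SD of either genotype. The FL mean was 27464 ± 5133 (SD, n = 4) and the WT mean 19080 ± 3078 (SD, n = 3), a fold of 1.44. The log2 fold change was 0.52 (SE 0.18, 95% interval 0.10 to 0.95, p = 0.0223 and adjusted p = 0.999 by limma, exact permutation p = 0.029, the smallest possible). It was 0.44 without WT replicate 2 and FL replicate 3, and ran from 0.37 to 0.60 over all settings tried, in each of which the FL livers stayed above the WT livers wherever the overlap was counted. None of the 36-base stretches of *Cdo1* occurred in another gene.

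*Csad*, which decarboxylates the product of *Cdo1* on the way to taurine, measured 5766, 6847, 4726 and 5599 normalised counts in FL and 4104, 4949 and 5473 in WT. Only FL replicate 3 fell within the WT range, and the log2 fold change was 0.24 (SE 0.16, 95% interval -0.12 to 0.60, exact permutation p = 0.200). It was 0.35 without WT replicate 2 and FL replicate 3.

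**Figure D5:**
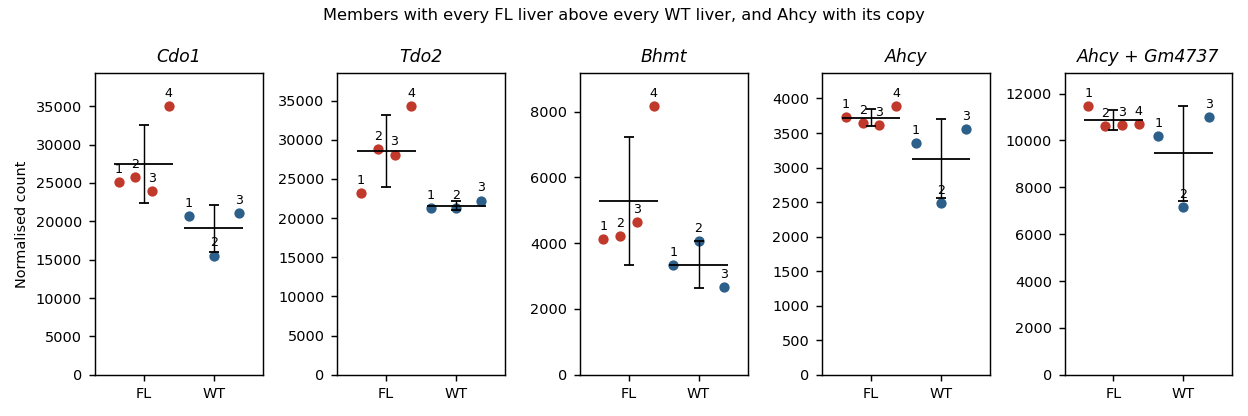
Normalised count (y axis, from 0) in each FL (red) and WT (blue) liver, numbered by replicate, for *Cdo1*, *Tdo2*, *Bhmt* and *Ahcy* and for *Ahcy* summed with *Gm4737*, with the mean (line) and SD (bar). In the first 4 panels every FL point lies above every WT point, with the widest gap in *Cdo1*, and in the sum WT replicate 3 at 10992 exceeds 3 of the FL livers.

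Among the 5 livers without WT replicate 2 and FL replicate 3, more members separated. Every remaining FL liver lay above every remaining WT liver in 13 members, *Cps1*, *Got2*, *Gpt*, *Tdo2*, *Amdhd1*, *Sdsl*, *Agxt*, *Prodh2*, *Bhmt*, *Ahcy*, *Cbs*, *Cdo1* and *Csad*, against 12.7% of all tested genes. In no member did every remaining FL liver lie below, against 14.6% of all tested genes. The median log2 fold change of the members was then 0.08. An unadjusted p under 0.05 was found for 7 members, all higher in FL, against 4.57% of all tested genes in this direction and 5.17% in the other, and the lowest adjusted p of a member was 0.364 (limma, Benjamini-Hochberg). These livers were left out because they stood apart in the data, and with 3 and 2 livers the remaining groups are small.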

How the data were processed

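Liver RNA of 4 FL and 3 WT mice was analysed, with genotype and replicate taken from the sample labels. Paired-end reads of stranded poly(A) libraries were mapped by the authors with TopHat version 2.0.13 and Bowtie version 2.2.6.0, assigned to genes with HTSeq and scaled by DESeq2 size factors. The submitters' notes also name featureCounts, and the build they give, GRCh38, is a human one. The authors rounded the resulting normalised counts to whole numbers before deposit, so the deposited values were treated as a score and not as raw counts, and no count test was run. The table held 14988 rows for 14851 Ensembl identifiers, of which 120 stood on more than 1 row with equal values and were kept once. Symbols, coordinates and exon lengths came from GENCODE vM21 (GRCm38) and promoter bases from RefSeq (GRCm38.p6), which had no entry for 11 of the members.

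Genotypes were compared by lmFit and eBayes with a trend (limma version 3.58.1 under R version 4.3.3) on log2(normalised count + 1) over the 12545 genes with a mean of at least 10, with Benjamini-Hochberg adjustment over all of them and a threshold of 0.05. The pseudocount of 1 understates changes of genes with low values. For single genes, exact two-sided permutation tests used the 35 ways of dividing the 7 livers. Without a source that calls the livers more than separate mice of a genotype, p-values measure the spread between these mice. Chi-square per degree of freedom between livers of 1 genotype was at least 10.0, so that each library was a separate one. On simulated data with 200 genes changed by 4-fold, the limma step recovered 92.5% of them, with 13 false calls among 12697 genes tested. The simulated spread was taken from the livers other than WT replicate 2 and FL replicate 3. It was thus drawn without the livers that stood apart, and the share recovered does not apply to the real comparison or to smaller changes.

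Members and lists were chosen with earlier results of these data known. Full values were given for the 6 urea cycle enzymes, the entry enzymes of amino acid breakdown, the 8 members with the smallest unadjusted p and those whose genotypes did not overlap, and for *Bckdk* and *Agxt*, which were chosen after their values were seen. Of the related genes and regulators, those whose genotypes did not overlap or with the smallest p of their list were named, with *Glul* and *Klf15*, except for 1 related gene that is not reported here. For each gene, the share of its 36-base stretches that also occur in GENCODE transcripts of another gene was counted. Alternatives were other pseudocounts, filters and scalings, robust hyperparameters or no trend in limma, a block for the replicate number, and the removal of each liver in turn. Tables and plots were made with SciPy version 1.17.1, NumPy version 2.4.6, pandas version 2.3.3 and Matplotlib version 3.10.9 under Python version 3.11.15.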

Additional observations from a re-analysis of the deposited data

Results flagged for a closer look

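In each gene the 4 FL livers were examined for 1 liver far from the others, by Dixon's test of the gap to the nearest liver over the whole range. Chance marks about 1 in 20 such groups, and 5 of the 54 members were marked, against 6.75% of all tested genes. FL replicate 3 was the far liver in 4 of them. *Hpd*, the tyrosine pathway dioxygenase, measured 29459 normalised counts there against 19323 to 19979 in the other FL livers. *Uroc1*, the urocanase of histidine breakdown, measured 9082 against 5059 to 5551. *Ivd*, of the leucine branch, measured 2953 against 1807 to 1941. *Prodh2*, the hydroxyproline oxidase, measured 4203 against 3216 to 3353. In the remaining gene, *Bhmt*, the far liver was FL replicate 4, at 8185 against 4138 to 4633.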

How the results depend on the processing

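No member had an adjusted p under 0.05 under any of the 18 other settings, with a lowest member adjusted p between 0.364 and 1 (limma, Benjamini-Hochberg). Among all genes, where 2 passed, the count was 0 with a minimum mean of 50 (316 at an unadjusted p under 0.05), 0 with a pseudocount of 5 (404), 0 without a trend (465), 1 after quantile normalisation, 0 to 5 when 1 liver was left out and 6 without WT replicate 2 and FL replicate 3. Replicate numbers 1 to 3 occur in both genotypes, and the deviations of same-numbered livers correlated at 0.44, -0.48 and -0.66. WT replicate 2 and FL replicate 3, which stood apart, bear different numbers and weigh on these values. The correlations therefore cannot show whether the numbers pair the mice. With the replicate number as a replicate block, 0 genes passed (110 unadjusted) and 0 members had an unadjusted p under 0.05. That count of members, 3 in the comparison reported, was 2 without a trend, 1 after quantile normalisation, 1 after upper-quartile scaling, 1 to 5 when 1 liver was left out (5 without FL replicate 1) and 7 without WT replicate 2 and FL replicate 3. Members with every FL liver above every WT liver, 4 with all livers, were 2 after upper-quartile scaling and 2 after quantile normalisation (*Ahcy* and *Cdo1* each time), 4 to 12 when 1 liver was left out (12 without WT replicate 2, where 8.96% of all genes did so and 10.7% the reverse) and 13 without WT replicate 2 and FL replicate 3. Members with every FL liver below were 0 to 1 when 1 liver was left out, the 1 being *Sardh* without WT replicate 1. Adding near-identical copies left 3 members with the genotypes apart, *Tdo2*, *Bhmt* and *Cdo1*. These counts of separation and the adding of copies were chosen after seeing the data. The log2 fold changes of the 21 genes given in full by rule moved by at least 1 SD in 2 of 378 values, *Cps1* to -0.14 and *Tdo2* to 0.17, both after quantile normalisation. Their sign changed in 23 values, while 11 of the 21, among them *Tdo2*, *Bhmt*, *Ahcy* and *Cdo1*, kept it throughout. Groups of 3 and 4 livers allow only wide intervals for the most variable members, and reads of *Ahcy*, *Ass1* and *Bhmt* are split with near-identical copies.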

Other observations

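A list of 49 tested genes of related pathways (ammonia handling, aromatic, branched-chain, one-carbon and sulfur metabolism) was read from the same comparison. None had an adjusted p under 0.05 (limma, Benjamini-Hochberg). An unadjusted limma p under 0.05 was found for 2, against 1.59% of all tested genes higher in FL and 1.6% lower. Of the list 28 lay above 0 and 21 below, where 51.6% of all tested genes lay above 0. *Oat*, the ornithine aminotransferase of pericentral hepatocytes that takes ornithine away from the urea cycle, measured 1836, 1518, 1068 and 1441 normalised counts in FL and 2383, 1958 and 4185 in WT. The genotypes did not overlap, with WT replicate 3 far above the rest, and the log2 fold change was -0.90 (SE 0.28, p = 0.012 and adjusted p = 0.999 by limma, exact permutation p = 0.029). Every FL liver lay below every WT liver in 1.98% of all tested genes.

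*Pccb*, a subunit of propionyl-CoA carboxylase, lay higher in every FL liver than in every WT liver, as did 2.77% of all tested genes. The margin was narrow, with 2529 normalised counts in the lowest FL liver and 2520 in the highest WT liver.

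Of the 10 regulators of these pathways, 3 lay higher in every FL liver than in every WT liver, against 2.77% of all tested genes. An unadjusted limma p under 0.05 was found for 3, *Nr1h4*, *Cebpa* and *Cebpb*. All 3 were higher in FL, against 1.59% of all tested genes in this direction. The 6 hepatocyte markers also all lay above 0, with a median log2 fold change of 0.31. For 1 of these markers, *Ttr*, every FL liver lay above every WT liver, and *Hnf4a* is on both lists. Whether the regulators differ from hepatocyte genes in general was not tested. *Nr1h4*, the bile acid receptor FXR, measured 1965, 1932, 2058 and 2101 normalised counts in FL and 1664, 1636 and 1657 in WT, with a log2 fold change of 0.28 (SE 0.09, p = 0.0115 and adjusted p = 0.999 by limma, exact permutation p = 0.029). *Gcgr*, the glucagon receptor, measured 5472 to 5880 in FL and 4696 to 5257 in WT (p = 0.146 by limma, exact permutation p = 0.029), and *Cebpa*, a transcription factor of mature hepatocytes, 6160 to 7169 in FL and 4668 to 5954 in WT (p = 0.0376 by limma, exact permutation p = 0.057). *Cebpb*, a related factor named here after its values were seen, measured 3958, 4934, 2188 and 3774 in FL and 2330, 1259 and 2690 in WT. FL replicate 3 overlapped the WT livers, and the log2 fold change was 0.84 (SE 0.33, p = 0.0366 and adjusted p = 0.999 by limma, exact permutation p = 0.114), and 0.74 without WT replicate 2 and FL replicate 3 (adjusted p = 0.123). *Klf15*, a transcription factor that activates amino acid breakdown in fasting, did not separate the genotypes, with 829, 1256, 2184 and 1285 in FL and 845, 1962 and 1363 in WT. Its highest livers were FL replicate 3 and WT replicate 2 and its lowest FL replicate 1 and WT replicate 1, and these were also the highest and lowest livers of *Tat*.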
